A study of Homo sapiens with 2 samples.

Results

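The windows described here lie over the starts of 381 olfactory receptor genes, out of 36814 gene start windows measured in K562. They were chosen by symbol (OR, a family number, subfamily letters and a member number), with names ending in P, which mark pseudogenes, left out. Of them, 52 lie on chromosome 11 between 4.4 and 6.3 Mb, in the cluster that surrounds the beta globin genes, and 329 lie elsewhere. The rule reads names and positions, and no counts. The rule was made to compare receptors beside an active erythroid locus with all others, as a measure of background and spill-over.

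K562, a human cell line started from chronic myelogenous leukaemia, keeps erythroid traits. There were 2 libraries of precision run-on sequencing (PRO-seq), in which engaged polymerases extend their transcripts with biotinylated nucleotides and the labelled RNA is isolated and read: 1 of untreated cells, and 1 of cells given 0.1% DMSO, the usual drug solvent, for 1 h. Each value is the count of reads over 6000 bases centred on an annotated gene start (hg38). With 1 library per treatment no value has a replicate check and no test was possible. The intervals given are exact intervals at 95% that cover counting error only, with each read taken as independent.

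Olfactory receptors are G protein-coupled receptors that detect odorants in sensory neurons of the nose. Each mature neuron transcribes a single receptor gene from one allele, while the other receptor genes are held in compact, repressed chromatin. The genes stand in clusters on many chromosomes. Class I receptors (families 51 to 56) resemble those of fish and stand almost wholly in the chromosome 11 cluster in which the beta globin genes are embedded, and class II receptors make up the other clusters. In erythroid cells the globin genes depend on a locus control region just upstream of them. Blood cells have no known need of most of these receptors, so their windows give a view of the reads found where little transcription is known.

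The labelled cell type was checked against markers first. Of 12 erythroid markers, 10 reached 1 read per 1e+06 reads (CPM) in both libraries, among them TFRC with 432 untreated and 1179 DMSO reads. The windows of HBG2 and HBE1, the only exceptions, had 47 and 0 bases of their own, because reads in bases that windows share are absent from the counts. Of 7 markers of olfactory sensory neurons, GNG13, a G protein gamma subunit, had 264 untreated and 741 DMSO reads and ADCY3, an adenylyl cyclase, 32 and 321. The defining marker OMP had 0 and 9 reads and the channel gene CNGA2 0 in both. The markers summed to 298 untreated and 1079 DMSO reads, most of them GNG13 and ADCY3. None of 9 markers of olfactory supporting and basal cells reached 1 CPM in both libraries.

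Sequences of receptor gene starts are given first, because the windows are defined by these starts. RefSeq (GRCh38.p14) start sequences, from 250 bases before to 50 after the start, matched 305 of the 381 receptors by symbol, and 296 of these starts lay inside the window. Olfactory starts had a median of 37.7% G and C bases, against 58.7% over all 34943 RefSeq starts. On either strand, the TATA box letters TATAAA stood in 34.8% of olfactory starts and in 11.6% of all starts. The erythroid GATA letters AGATAA stood in 31.1% against 10.4%, and TAATTA, which homeodomain factors such as LHX2 can bind, in 22.6% against 4.85%. CCCNNGGG, a core that EBF factors can bind, stood in 7.87% against 19.0%. The first 3 motifs are rich in A and T, as the starts are, and a match is no evidence of binding.

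The sequences are 4 starts from the most read windows outside the globin cluster, and OR52H1, a window of 0 untreated and 2 DMSO reads beside that cluster's most read part. Capitals mark matches to these motifs. The starts are OR10AD1 at chr12:48203243-48203542 (minus strand, TATA box letters on the reverse strand), OR2B6 at chr6:27956991-27957290 (plus strand, TAATTA), OR7D2 at chr19:9178729-9179028 (plus strand, EBF letters), OR2W3 at chr1:247895337-247895636 (plus strand, TATA box letters) and OR52H1 at chr11:5548491-5548790 (minus strand, no match).
OR10AD1: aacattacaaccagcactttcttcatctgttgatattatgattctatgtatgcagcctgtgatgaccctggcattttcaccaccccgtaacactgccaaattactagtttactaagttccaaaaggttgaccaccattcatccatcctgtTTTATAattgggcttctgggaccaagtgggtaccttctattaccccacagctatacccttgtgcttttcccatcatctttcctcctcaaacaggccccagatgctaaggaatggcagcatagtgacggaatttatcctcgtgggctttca
OR2B6: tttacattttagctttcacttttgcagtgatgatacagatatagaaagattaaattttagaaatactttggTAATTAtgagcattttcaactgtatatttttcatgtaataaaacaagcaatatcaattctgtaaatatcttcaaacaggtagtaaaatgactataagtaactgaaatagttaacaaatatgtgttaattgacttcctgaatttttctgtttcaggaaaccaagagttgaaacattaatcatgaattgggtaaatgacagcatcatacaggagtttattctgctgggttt
OR7D2: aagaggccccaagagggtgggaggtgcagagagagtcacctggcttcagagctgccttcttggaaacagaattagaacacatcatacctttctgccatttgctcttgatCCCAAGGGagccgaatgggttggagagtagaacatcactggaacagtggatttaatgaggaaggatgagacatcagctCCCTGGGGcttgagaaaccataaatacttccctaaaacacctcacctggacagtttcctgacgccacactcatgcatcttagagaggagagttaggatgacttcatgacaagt
OR2W3: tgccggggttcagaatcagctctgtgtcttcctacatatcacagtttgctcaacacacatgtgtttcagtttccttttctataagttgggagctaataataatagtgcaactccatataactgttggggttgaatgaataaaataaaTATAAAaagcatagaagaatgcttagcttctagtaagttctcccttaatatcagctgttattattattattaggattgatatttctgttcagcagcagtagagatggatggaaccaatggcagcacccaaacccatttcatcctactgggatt
OR52H1: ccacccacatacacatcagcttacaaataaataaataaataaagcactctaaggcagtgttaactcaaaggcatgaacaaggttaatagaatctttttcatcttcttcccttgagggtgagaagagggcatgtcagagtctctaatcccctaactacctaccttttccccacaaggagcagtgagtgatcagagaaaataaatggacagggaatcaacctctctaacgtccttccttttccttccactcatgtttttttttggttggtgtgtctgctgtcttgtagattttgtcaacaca

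Most olfactory windows held few reads or none. In the untreated library 89 of 381 windows (23.4%, interval 19.2 to 27.9) had at least 1 read, against 50% of all windows, and in the DMSO library 256 (67.2%, interval 62.2 to 71.9), against 77.6%. The DMSO library had 4.28 times as many reads outside ribosomal RNA and mitochondrial windows. When it was thinned to the untreated depth in 1 random draw, 34.1% of olfactory windows kept a read. The share of all windows after thinning was not computed, so this value has no counterpart here. In all, 115 windows had no read in either library, 177 had DMSO reads only, 10 untreated reads only and 79 both. The median olfactory window held 0 untreated reads and 1 DMSO read, while the median window outside ribosomal RNA and mitochondrial windows held 1 and 4. At 1 CPM or more in both libraries stood 39 olfactory windows (10.2%), against 34.7% of all windows. In such bulk libraries, a few cells that transcribe a gene and a low level in all cells cannot be told apart. As a one-sided limit, a count of 0 allows up to 3 reads, which make 1.40 CPM in the untreated and 0.722 CPM in the DMSO library; the exact 2-sided interval of a count of 0 reaches 3.69 reads.

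Per kb of unshared bases the olfactory windows held 0.458 untreated and 1.26 DMSO reads. All other windows, without ribosomal RNA and mitochondrial ones, held 3.44 and 14.7, which is 7.52 times (interval 7.07 to 8.01) and 11.7 times (interval 11.3 to 12.2) as many. No base was shared in 342 of the olfactory windows, while 13 kept less than 1 kb unshared.

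The 52 windows beside the globin genes held many more reads than the others, but not in more windows. They had 582 untreated and 1647 DMSO reads, that is 2.03 and 5.75 reads per kb, and the 329 elsewhere 412 and 1084, that is 0.218 and 0.575 per kb. The ratio of these levels was 9.30 (interval 8.19 to 10.6) untreated and 10.0 (interval 9.26 to 10.8) with DMSO. The share of windows with a read was 25% (interval 14.0 to 38.9) beside the globin genes and 23.1% (interval 18.7 to 28.0) elsewhere in the untreated library. With DMSO it was 63.5% against 67.8%. The medians were 0 untreated reads and 1 DMSO read in both sets.

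**Figure D1:**
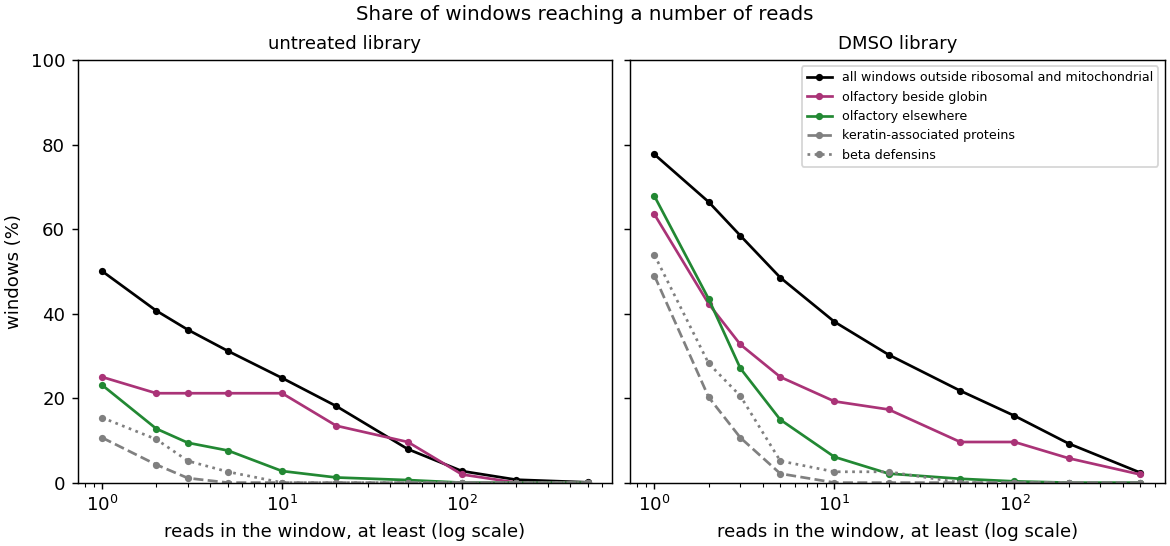
Share of windows (vertical, percent) that held at least a given number of reads (horizontal, log scale), in the untreated (left) and DMSO (right) library, for 52 olfactory windows beside the globin genes, 329 elsewhere, 94 keratin-associated protein windows, 39 beta defensin windows and all windows outside ribosomal RNA and mitochondrial ones. The 2 olfactory curves start close together at 1 read, and part at higher counts, where 11 of 52 windows beside the globin genes but 9 of 329 elsewhere held 10 or more untreated reads.

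The excess lay in 8 adjacent receptor windows, from OR51B4 to OR52D1, with centres spread over 187 kb. This group was picked after its values were seen, so it is described without a test. It held 546 of the 582 untreated reads (93.8%) and 1552 of the 1647 DMSO reads (94.2%), at 11.4 and 32.3 reads per kb. The other 44 windows in the range held 36 and 95 reads, at 0.151 and 0.399 per kb, which is 0.691 times (interval 0.478 to 0.973) and 0.693 times (interval 0.556 to 0.856) the level of the receptors elsewhere. That ratio removes the most read windows from one side only. With the 10 most read windows elsewhere left out as well, it was 1.47 (interval 0.998 to 2.11) untreated and 1.11 (interval 0.882 to 1.37) with DMSO, and both intervals, untreated and DMSO, hold a ratio of 1.

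The 8 windows lie between the globin genes and a distant start. In the deposited table the windows of HBE1 and OR51B5 are the same (chromosome 11, 5502653 to 5508652), and that of HBG2 starts 47 bases before it, which leaves HBG2 47 bases of its own, with 0 and 2 reads, and the others none. In RefSeq, OR51B5 spans 165 kb, from 5340318 to 5505652 of chromosome 11, and its start is the centre of that window. RefSeq places HBG2 at 5253188 to 5254781 and HBE1 at 5268345 to 5269945, next to HBG1. Of the 8 windows, 6 have their centre inside the OR51B5 span, namely OR51B6, OR51M1, OR51Q1, OR51I1, OR51I2 and OR52D1. They held 482 untreated and 1391 DMSO reads. OR51B2 and OR51B4 lie beyond the end of the span, towards the globin genes. Strand was ignored in the counting, as described under processing, so reads could not be assigned to the receptor or to a transcript that crosses it.

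Read counts fell with distance from that start and rose again next to the globin genes. OR52D1, nearest to it (5485685 to 5491684, centre 17.0 kb away), held 139 untreated and 626 DMSO reads. OR51I2 (5446323 to 5452322) held 96 and 312, and OR51I1 (5438515 to 5444514) 86 and 207. In both libraries the window nearest to the start was the highest. OR51Q1 (5419111 to 5425110) held 66 and 167 reads, OR51M1 (5380812 to 5386811) 58 and 45, and OR51B6 (5348508 to 5354507) 37 and 34. OR51B2 (5321298 to 5327297) had the fewest, 17 and 25. OR51B4 (5298947 to 5304946), the receptor nearest to the globin genes among the 8, held 47 and 136. From OR52D1 to OR51B2 every step was downward in both libraries, 8.18 times in all for untreated and 25.04 times for DMSO reads.

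Not all neighbours in this order differed beyond counting error. In the untreated library the steps from OR51I2 to OR51I1, from OR51I1 to OR51Q1 and from OR51Q1 to OR51M1 had intervals that held a ratio of 1. In the DMSO library those from OR51M1 to OR51B6 and from OR51B6 to OR51B2 did. The rise from OR51B2 to OR51B4 exceeded counting error in both, since OR51B2 had 0.362 times (interval 0.195 to 0.642) and 0.184 times (interval 0.115 to 0.283) the reads of OR51B4. In DMSO the widest of the downward steps lay between OR51Q1 and OR51M1, 3.71 times (interval 2.66 to 5.28), where the untreated step was 1.14 times (interval 0.787 to 1.65).

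**Figure D2:**
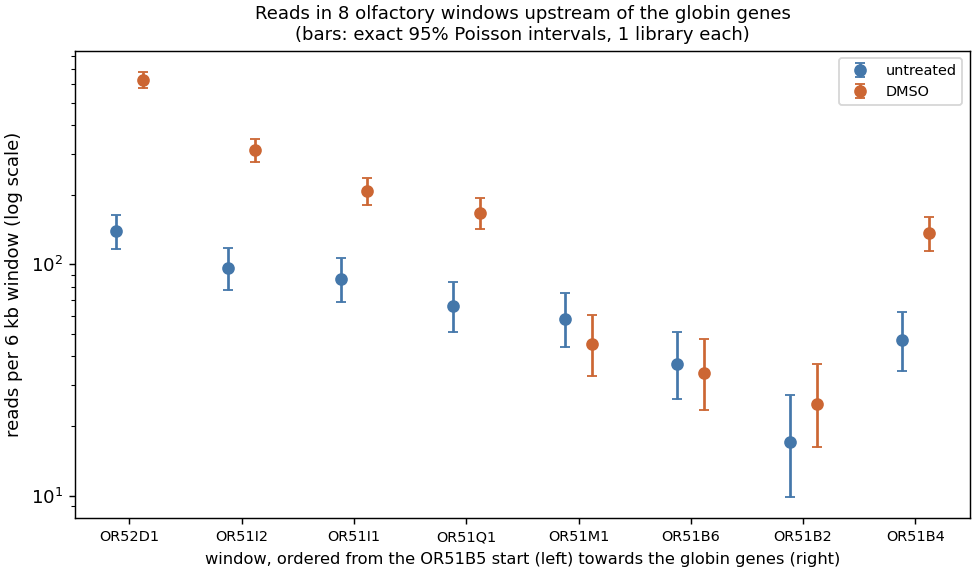
Reads per 6 kb window (vertical, log scale) of the 8 receptor windows, ordered from the OR51B5 start (left) towards the globin genes (right), with exact Poisson intervals at 95%, 1 library per colour. The DMSO counts run from 626 at OR52D1 down to 25 at OR51B2 and the untreated counts from 139 to 17, and both are higher again at OR51B4.

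Counts were low on the far side of the start. The window of UBQLNL, a ubiquilin-like gene on that side, held 3 untreated and 5 DMSO reads. OR52H1 beyond it held 0 and 2, and OR52B6 1 and 8. On the other side of the globin genes, OR51V1, 49.2 kb from the HBG1 window, held 0 and 1 reads, although HBG1 itself, a fetal globin gene, held 244 and 518. OR52A1 held 0 and 4. OR52A5 (5135357 to 5141356) held 13 untreated reads (interval 6.92 to 22.2) and 5 DMSO reads (interval 1.62 to 11.7).

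**Figure D3:**
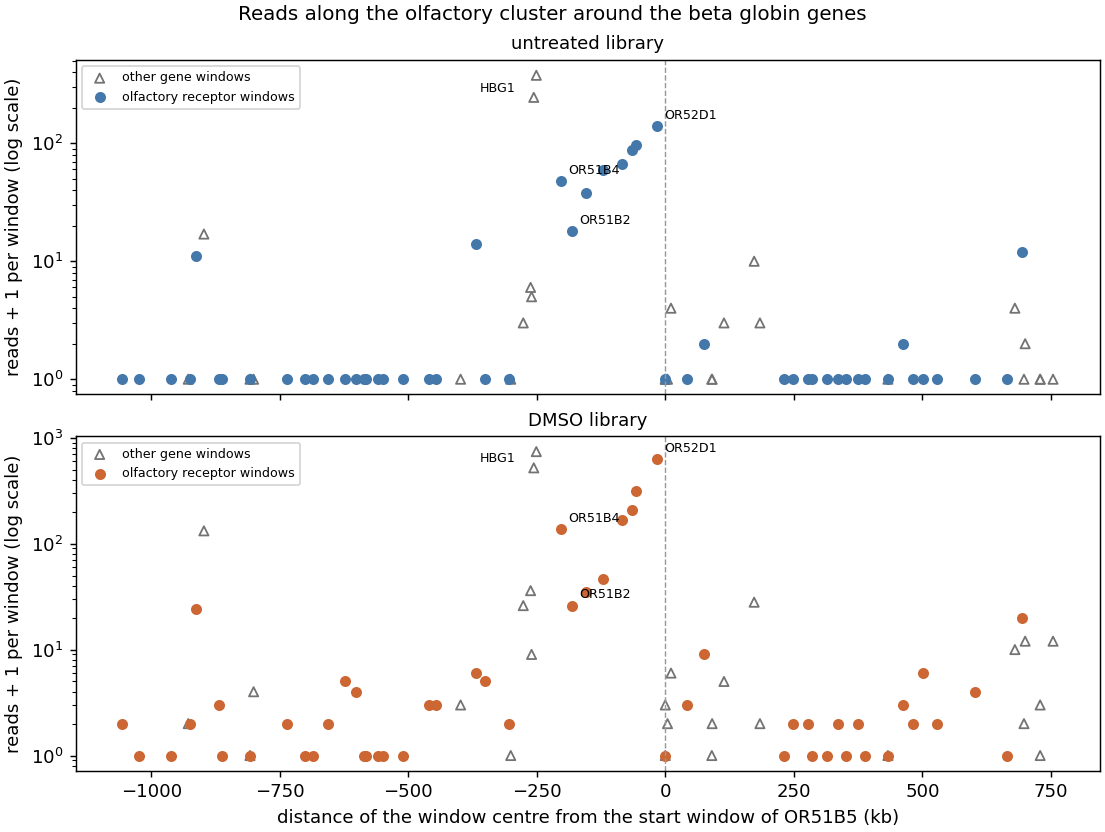
Reads plus 1 per window (vertical, log scale) against the distance of the window centre from the start window of OR51B5 (horizontal, kb, negative towards the globin genes), for olfactory windows (filled circles) and other genes (open triangles) of the range, untreated above and DMSO below. The 8 windows from OR51B4 to OR52D1 stand between the start at 0 and the HBG1 window, while most receptors on either side lie at 0 to 5 reads.

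Few other windows of the range stood out. OR52I1 (4590614 to 4596613) held 10 and 23 reads and lies 14.6 kb from the window of TRIM68, a ubiquitin ligase gene with 16 and 131 reads. OR52W1 (6196146 to 6202145) held 11 and 19. Only 3 other genes inside the range passed a level of 5 CPM and 100 reads over both libraries, namely TRIM68, HBG1 and AC104389.6, whose window overlaps that of HBG1, holds the RefSeq start of HBG2 and had 376 and 738 reads. At the edges of the range, OR52K2 and OR52K1 just inside held 0 and 1 and 0 and 0 reads, and OR52B4 just outside 0 and 3. At the upper edge OR52B2 and OR52W1 lay inside with 0 and 0 and 11 and 19 reads, and OR2AG2 and OR2AG1 outside with 5 and 9 and 2 and 7. OR52B4 was also the only class I receptor outside the range, so class and position cannot be told apart here.

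Outside the globin cluster 10 windows held 224 of 412 untreated and 425 of 1084 DMSO reads. OR10AD1 (chromosome 12, 48200388 to 48206387) had the most over both libraries, 50 and 122. Its window overlaps that of AC024257.3, which held 22 and 122 reads. OR2B2 (chromosome 6, 27909397 to 27915396) held 63 and 63 reads, the most in the untreated library, and OR2B6 in the same stretch 33 and 20. OR2B2 lies beside a replication-dependent histone gene, HIST1H2BO, whose window, 18.9 kb away, held 23 and 31 reads in 313 bases of its own. The nearest active window, that of the histone gene HIST1H4K (379 and 1559 reads), lay 80.9 kb from OR2B2 and 125.7 kb from OR2B6. OR7D2 on chromosome 19 held 20 and 59 reads. It lies 406 kb from the nearest active window, ZNF121.

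A receptor near an erythroid gene was among these 10. OR2W3 (chromosome 1, 247892587 to 247898586) held 11 and 39 reads, and lies 38.4 kb past the window of TRIM58, a ubiquitin ligase gene of late erythroid cells with 57 and 371 reads. OR10Z1 (chromosome 1, 158602268 to 158608267) held 5 and 31. Its nearest active window lay 598 kb away. OR2A4 on chromosome 6 held 8 and 38 reads inside the RefSeq span of ENPP3, and 9.62 kb from CTAGE9 with 10 and 19. The other 3 of the 10, OR8D1, OR8B4 and OR8G1, belong to a chromosome 11 cluster described further on.

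Away from the globin cluster, reads per kb were higher near active windows. An active window was taken as a window outside the olfactory list with a mean of at least 5 CPM and 100 reads over both libraries, of which there were 6578. A window with few bases of its own can hardly reach this level. Of 36797 windows outside ribosomal RNA and mitochondrial ones, 8727 kept under 1 kb unshared. That of HBE1, with 0 bases of its own, could not count as active, so a receptor called far may lie near an uncounted start. The 23 receptor windows with one under 50 kb away held 0.743 untreated and 1.84 DMSO reads per kb. At 50 to 100 kb the levels were 0.508 and 1.01 (29 windows), and at 100 to 200 kb 0.172 and 0.457 (67 windows). At 200 to 500 kb they were 0.175 and 0.475 (130 windows) and at 500 kb or more 0.0698 and 0.312 (80 windows). Near over far, divided at 100 kb, gave 4.24 (interval 3.47 to 5.17) untreated and 3.23 (interval 2.85 to 3.66) with DMSO. Much of this rested on single windows: without OR10AD1 the bin under 50 kb fell to 0.374 and 0.940, and without OR2B2 that of 50 to 100 kb to 0.145 and 0.666. With the globin cluster included the ratio was 2.14 (interval 1.86 to 2.45) and 1.55 (interval 1.41 to 1.69), since 5 of its 8 most read windows lie beyond 100 kb from an active window.

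**Figure D4:**
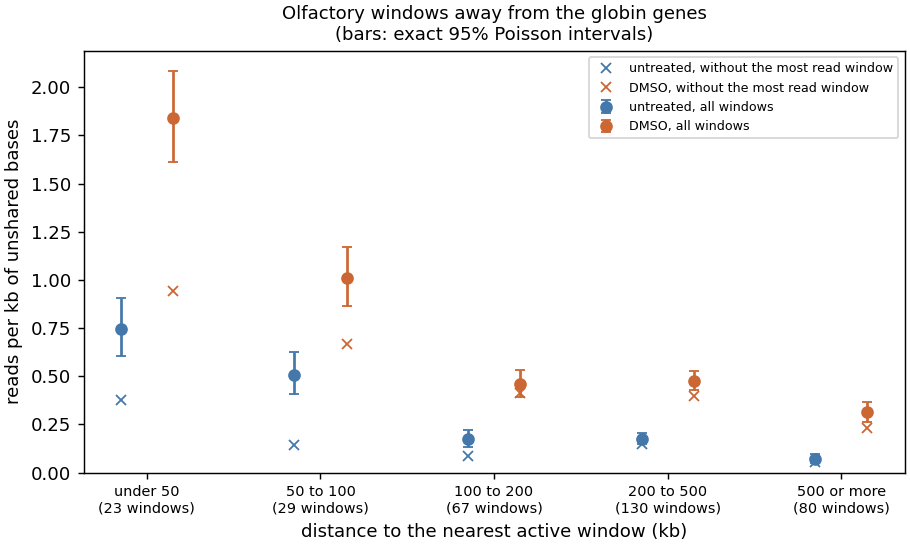
Reads per kb of unshared bases (vertical) in the 329 olfactory windows away from the globin genes, by distance to the nearest active window (horizontal, kb, with the number of windows), untreated and DMSO, with exact Poisson intervals at 95%. Crosses leave out the most read window of each bin; levels are highest under 50 kb (0.743 and 1.84) and lowest at 500 kb or more (0.0698 and 0.312).

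Reads per kb were also compared between receptors inside and outside another gene. That gene could itself be a receptor, such as OR2L13 or OR9Q1, and its own reads were not considered. Spans were matched by chromosome name and position alone, so single assignments, such as KIR2DL2 over OR4F17 (7 and 7 reads), are uncertain. Of the 329 windows, 64 had their centre inside the RefSeq span of another gene, with 0.294 untreated and 0.938 DMSO reads per kb. The other 265 had 0.201 and 0.491. The ratio was 1.46 (interval 1.16 to 1.83) untreated and 1.91 (interval 1.67 to 2.18) with DMSO. This rested in part on OR10AD1. Without it the windows inside other genes held 0.155 and 0.602 per kb, and the ratio was 0.770 (interval 0.565 to 1.03) untreated and 1.23 (interval 1.05 to 1.43) with DMSO.

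Other families that blood cells are not known to use gave a second level of background. The 94 windows of keratin-associated proteins, hair proteins, held 0.0307 untreated and 0.174 DMSO reads per kb, and the 39 of beta defensins, antimicrobial peptides, 0.0764 and 0.329. The receptors away from the globin genes stood 7.13 times (interval 4.27 to 12.8) and 3.31 times (interval 2.65 to 4.18) above the first. Without their 10 most read windows they held 0.103 and 0.361 reads per kb, 3.36 times (interval 1.98 to 6.11) and 2.08 times (interval 1.65 to 2.63) the keratin-associated level. Over the beta defensins the ratio was 2.86 (interval 1.74 to 5.05) and 1.74 (interval 1.37 to 2.26) for all of them, and 1.35 (interval 0.808 to 2.40) and 1.09 (interval 0.853 to 1.42) without the 10. The 6 trace amine receptor windows held 0.0833 and 0.417 reads per kb. The 3 vomeronasal receptor windows held 17 and 23 reads in all, and 1 window held all 17. Taste receptors were higher, with 432 and 1481 reads over 27 windows, but TAS1R3 alone held 340 and 1180 of these, and the other 26 windows 0.707 and 2.31 per kb.

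A cluster near the end of the long arm of chromosome 11 carried an even, low level of reads. All 10 windows from OR10D3 to OR8B12 (124180345 to 124548333) held reads in both libraries, 4 to 15 untreated and 6 to 19 DMSO reads each. OR8D1 held 15 and 18, OR8B4 9 and 19, and OR8G1 10 and 16. Together they held 87 untreated and 138 DMSO reads, at 1.49 and 2.36 per kb, which is 6.82 and 4.11 times the level of all receptors away from the globin genes, themselves included. The nearest active window, TBRG1, lay 77.5 kb from OR8B12 and 439 kb from OR10D3. This stretch was picked after its values were seen. OR8A1, between it and TBRG1, held 0 untreated and 16 DMSO reads (interval 9.15 to 25.98), the most of any receptor window without an untreated read. RefSeq places this gene at 124569997 to 124571374, outside its window. OR13J1 followed with 10 DMSO reads, and 8 windows, OR11H6 among them, held 5. The highest count without a DMSO read was 2, in OR4N2, and 9 windows, OR10G9 and OR11L1 among them, held 1 untreated read alone.

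The OR4F receptors held like, low counts. OR4F5, OR4F16 and OR4F29 on chromosome 1 held 8 and 9, 4 and 9, and 4 and 9 reads. OR4F3 held 9 and 8, OR4F21 8 and 7, OR4F4 8 and 16, and OR4F17 7 and 7. OR4F6 and OR4F15 held 0 and 0, and 0 and 1, so that 7 of 9 had untreated reads. The group was picked after its values were seen, and summed to 48 and 66 reads.

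The start sequences of OR4F5 (chr1:65169-65468) and OR4F17 (chr19:106854-107153), both on the plus strand, show that receptor copies can be alike. Capitals mark a run of 199 identical bases, at an offset of 101 bases, in which a read has no single place. How such reads were placed is not given in the sources used here, and the levels of these copies are uncertain.
OR4F5: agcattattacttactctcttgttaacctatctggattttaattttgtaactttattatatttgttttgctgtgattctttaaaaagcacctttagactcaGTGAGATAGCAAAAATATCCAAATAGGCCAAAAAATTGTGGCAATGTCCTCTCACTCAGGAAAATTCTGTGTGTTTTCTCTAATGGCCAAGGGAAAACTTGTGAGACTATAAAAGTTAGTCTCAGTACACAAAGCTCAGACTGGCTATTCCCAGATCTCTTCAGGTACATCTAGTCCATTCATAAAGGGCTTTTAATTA
OR4F17: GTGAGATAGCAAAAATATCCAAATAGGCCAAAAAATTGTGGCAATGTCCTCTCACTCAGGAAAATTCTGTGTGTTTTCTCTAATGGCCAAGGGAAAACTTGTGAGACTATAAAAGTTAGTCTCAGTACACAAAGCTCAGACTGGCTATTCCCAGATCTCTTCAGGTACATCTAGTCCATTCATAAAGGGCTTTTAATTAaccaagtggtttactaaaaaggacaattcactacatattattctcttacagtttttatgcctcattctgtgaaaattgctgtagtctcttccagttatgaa
Of the runs of 30 bases in their start sequences, OR11H12 and OR11H1 shared 238, and OR13C5 and OR13C2 shared 83. The entries of OR7C1 and OR7A5 are the same stretch of chromosome 19, and their windows, which overlap in all but 91 bases, held no read.

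The comparison of DMSO with untreated cells is one of 2 libraries. Ratios are log2 DMSO/untreated, scaled so that 3.81 DMSO reads per untreated read are equal levels (TMM), and given relative to the median of the 6586 windows past 5 CPM and 100 reads, which itself stood at 0.30 under this scaling and at 1.27 with library totals. Summed over all olfactory windows the ratio was -0.77 (interval -0.87 to -0.66). It was -0.73 (interval -0.86 to -0.59) beside the globin genes and -0.83 (interval -0.996 to -0.66) elsewhere, and these intervals overlap. Summed in the same way, all windows outside ribosomal RNA and mitochondrial ones stood at -0.13 (interval -0.132 to -0.124), so a sum can lie below the median window. Keratin-associated protein windows stood at 0.28 (interval -0.53 to 1.17) and beta defensins at -0.12 (interval -0.92 to 0.77). Without their 10 most read windows the receptors elsewhere stood at -0.42 (interval -0.65 to -0.18).

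Of the olfactory windows 8 passed that floor, which 17.9% of all windows did. None of the 8 was at least 2-fold higher with DMSO, where 6.86% of all windows past the floor were, and 2 were at least 2-fold lower, OR51M1 and OR2B2, where 7.91% were. OR51M1 stood at -2.59 (interval -3.19 to -2.01) and OR2B2 at -2.23 (interval -2.75 to -1.70). OR52D1 stood at -0.06 (interval -0.32 to 0.22), OR51I2 at -0.53, OR51Q1 at -0.89, OR51I1 at -0.96 and OR51B4 at -0.69. Below the floor, OR51B6 stood at -2.35 (interval -3.06 to -1.64) and OR2B6 at -2.95 (interval -3.83 to -2.10). Within the 8 windows upstream of the globin genes the ratio was thus highest next to the OR51B5 start and lowest in the middle.

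By position, the 381 windows fell into 48 clusters, parted where neighbours were over 500 kb from each other, and 21 clusters of 5 or more windows held 333 of them. The cluster around the globin genes (53 windows, OR52B4 included) stood at -0.72. The chromosome 11 cluster of 22 windows that holds OR8D1 had 93 and 172 reads and stood at -1.34 (interval -1.71 to -0.96). The largest cluster of chromosome 1, with 42 windows, had 18 and 110 reads and stood at 0.38 (interval -0.34 to 1.19). The 45 windows of chromosome 11 between 55340151 and 56991871 had only 4 and 38 reads, and the 13 of chromosome 6 between 29042241 and 29588120 only 1 and 3. The 14 windows of chromosome 9 between 122474927 and 122803122 had 1 and 31 and stood at 2.73 (interval 0.14 to 8.08). That was the highest ratio of any cluster with an untreated read. It rests on 1 untreated read, and the interval does not allow for the choice among many clusters.

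**Figure D5:**
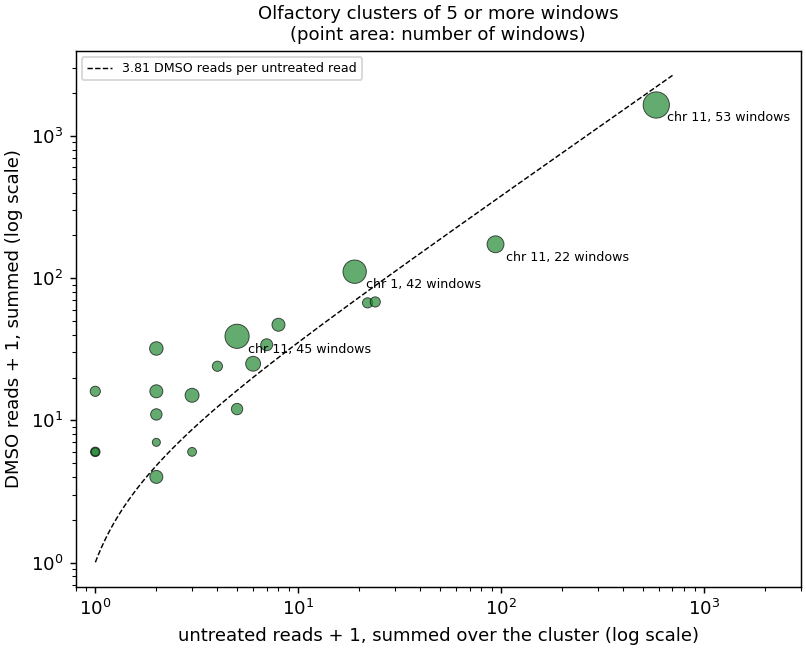
DMSO reads plus 1 (vertical, log scale) against untreated reads plus 1 (horizontal, log scale), summed over each of 21 olfactory clusters of 5 or more windows; point area follows the number of windows, and the dashed line marks 3.81 DMSO reads per untreated read. The globin cluster (582 and 1650 reads) and the chromosome 11 cluster of 22 windows (93 and 172 reads) lie below the line, and clusters with few untreated reads lie mostly above it.

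By median, genes tied to receptors in the nose lay near all windows outside ribosomal RNA and mitochondrial ones, which held 1 untreated and 4 DMSO reads. The medians were 0 and 2 reads for signalling genes, and 0.5 and 5 for genes of receptor choice and chromatin. Of 21 signalling genes, 4 reached 1 CPM in both libraries, against 34.7% of all windows, among them GNG13, ADCY3 and PDE4A, a cAMP phosphodiesterase (115 and 381 reads). GNAL, the olfactory G protein alpha subunit, held 2 and 6 reads, and RTP1, which carries receptors to the cell surface, 0 and 1. In this list 7 windows had under 1 kb of their own. Of 18 genes known from receptor choice and the chromatin around receptor genes, 7 reached 1 CPM in both libraries, against 34.7% of all windows. They included LDB1, a LIM domain partner that bridges enhancers both at receptor genes and at the globin genes (44 and 306 reads), LBR, the lamin B receptor (51 and 341), and KDM1A, a histone demethylase (53 and 293). LHX2, the homeodomain partner of LDB1 in olfactory neurons, held 0 and 1 reads and EBF1, in a window with 566 bases of its own, 0 and 0. In this second list, too, 7 windows had under 1 kb of their own, and low counts there say little about the gene.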

How the data were processed

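Reads of 2 PRO-seq libraries of K562, with a run-on of 5 min at 30 °C, were counted over windows of 6000 bases around gene starts. The deposited counts were made on hg38 with Bowtie2 2.3.5 and featureCounts 2.0.1, as the submitters' processing notes name them. The TPM values deposited beside them equalled CPM in all 36814 windows and were not used further, nor was the authors' mean TPM. Totals were 2136291 untreated and 4154920 DMSO reads, of which 4 windows over ribosomal RNA repeats took 71.5% and 42.2%. All 1154 windows whose bases are all shared held 0 reads, also the 321 shared with the opposite strand only, so levels are given per kb of unshared bases and strand was ignored in the counting.

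Members are found by name alone, but this rule, the gene lists and the comparisons were chosen with earlier results of these data known. TMM scaling used edgeR 4.0.16 (R 4.3.3), and single-window medians a prior count of 0.5. Intervals at 95% are exact (Poisson for counts, Clopper-Pearson for shares and ratios) and cover counting error only. Reads carry no molecular identifiers, so copies of the same molecule could not be told apart, and the intervals may be too narrow. The calculation was tested on simulated Poisson counts with a uniform rate per kb within each set, and with library totals as scaling between libraries. The real counts are less even, so this does not show that the intervals fit them. Named windows were the 10 most read in each set, the 5 most read per kb, 3 read in 1 library only per direction, range edges, nearest active windows, active genes of the range, list members with reads and near-identical copies. Some windows that this rule selects are not reported here. Alternatives covered overlap, unshared length, pseudogenes, range, distance, activity level, read minimum, thinning and scaling (also DESeq2 1.42.0).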

Additional observations from a re-analysis of the deposited data

How the results depend on the processing

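No paired analysis was possible because there is a single library of each kind, which also leaves no replicate to drop. Leaving out the 8 windows, the 6 in OR51B5, OR10AD1 or, together with the 8, the 10 most read elsewhere was chosen after seeing the data. The cause of each change was not tested, except that read minimums and thinning lower what is counted. The share of olfactory windows with a read became 11.02% untreated and 27.8% with DMSO at 3 reads, and 34.1% after thinning. The ratio of windows beside the globin genes to the others (9.30 and 10.0) was 12.2 and 13.2 in windows without overlap, 30.4 and 32.2 in the range of 5.0 to 5.6 Mb, and 11.05 and 11.7 against chromosome 11 alone. With DMSO it was 7.12 without the most read windows and 11.5 against class I, where the other side is 1 window of 3 reads and the untreated library gave no value. Without the 6 windows in OR51B5 it was 1.83 and 1.78, and without the 8 it turned to 0.691 and 0.693, with the most read windows dropped from one side only. With the 10 most read windows elsewhere dropped too it was 1.47 and 1.11.

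Near over far from active windows (2.14 and 1.55) was 4.16 and 2.38 with activity set at 20 CPM and 400 reads, 3.87 and 2.31 at 200 kb, 4.24 and 3.23 without the globin cluster, and 3.14 and 2.32 without OR10AD1 as well. With DMSO alone it moved to 1.35 without overlap, 1.36 at 1 CPM and 20 reads, 2.14 at 50 kb and 1.76 without the most read windows. Olfactory over other windows (0.133 and 0.0852) was 0.103 and 0.0577 against protein-coding symbols, 0.0613 and 0.0376 without the 8 windows, and 0.0897 with DMSO without overlap. The summed DMSO/untreated ratio (-0.77) was -0.64 with a floor of 1 CPM and 20 reads and -0.93 without OR52D1. Scaling cancels in ratios taken relative to the median; not centred, the sum stood at -0.47 under TMM and 0.50 with library totals. For 30 other settings of these results and 12 of single windows the value stayed within its counting interval or, for counts, within 1.5 times; 3 and 36 scaling settings are not counted here, since centring fixes their outcome. The number of windows at 1 CPM ran from 35 to 58 over the alternatives.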
